A study of Mus musculus with 6 samples.

Results

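The respiratory chain passes electrons from NADH and succinate to oxygen through complexes I to IV in the inner mitochondrial membrane, and ATP synthase (complex V) uses the proton gradient that the chain builds. Most subunits are encoded in the nucleus and imported, while a small core set is transcribed and translated inside the mitochondrion from the mitochondrial DNA (mtDNA), so each complex other than complex II is assembled from the products of both genomes. In the lens, mitochondria are held by the epithelial layer and the youngest outer fibre cells and are removed as fibre cells mature.

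The messages of these subunits were measured in whole mouse lenses as gene symbols of the subunit form of Nduf (Nduf, a letter a, b, c, s or v and a number), Sdha to Sdhd, Cyc1, or symbols beginning with Uqcr, Cox4 to Cox8 or Atp5, together with the protein-coding mt- genes, without the 13 pseudogenes marked -ps. The rule gave 105 of the 55416 genes of the count table, 92 of them nuclear and 13 mitochondrially encoded. The rule used names only and no measured value. It leaves out Ndufab1, whose symbol has another form, and Ndufa4 and Ndufa4l2 are described here with complex IV, where the Ndufa4 protein is found. The rule kept Ndufa11b, Ndufb4c, Ndufs6b and Cox6c2, which GENCODE M21 lists as processed pseudogenes, and a second Atp5o entry at 0 counts. None of these had enough counts to be tested.

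Libraries came from 3 samples of wild-type mice (strain label C57BL/har) and 3 samples of mice with a germline deletion of Cd24a (strain label C57BL/6). Cd24a encodes a small surface glycoprotein anchored to the membrane by a lipid, and the question was its role in the lens after birth. Each sample pooled 2 lenses, and the mice were 8 weeks old by the sample labels and 7 weeks old by the series text. Because the strain label differs between the groups, strain and genotype cannot be told apart. Because the deletion is germline, it was not limited to the lens.

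Totals ran from 5384542 to 7302951 counts per library. Cd24a had 17514 to 20656 counts in the wild-type libraries and 45 to 71 in the knockout libraries. Levels are given as CPM (counts scaled to a common library size, with TMM factors). Lens fibre markers summed to 304700 to 324600 CPM in wild-type and 278200 to 314700 CPM in knockout lenses. Of 10 listed genes, 9 were detected and Lim2 was at 0. Of the 9 tested, 2 were called lower (Bfsp2 and Crygs), against 4.48% of all tested genes. A log2 fold change below 0 was found for 8 of the 9, against 49.3% of all tested genes. Xist, the RNA of the inactive X chromosome, had 2191 and 2466 counts in replicate 3 of the wild type and the knockout and at most 4 elsewhere. Lens epithelium markers summed to 1692 to 1788 CPM in wild-type and 1407 to 1426 CPM in knockout lenses, with 10 of 10 detected and 5 of them lower. Photoreceptor markers summed to 325 to 656 CPM against 330 to 482 CPM, with 12 of 12 detected. All 12 had a log2 fold change below 0 (median -0.67), with overlapping groups. At an unadjusted edgeR p of at most 0.05, 7 of them were lower, against 10.7% of all tested genes. After adjustment 1 was called lower, against 4.48%. In such bulk samples fewer cells of a type and less RNA per cell cannot be told apart.

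Most nuclear subunit messages stayed close to their wild-type level, and few passed the test in either direction. Of the 92 nuclear members, 79 (58 accessory and 21 of the catalytic core) had enough counts to be tested. Of these, 5 were lower in the knockout (Ndufa4, Ndufa5, Ndufa7, Ndufa3 and Ndufa1) and 2 were higher (Cox7a2l and Atp5c1) at an edgeR quasi-likelihood adjusted p of at most 0.05, adjusted over all 11474 tested genes. The share called lower was 6.33%, against 4.48% of all tested genes called lower, 3.02% called higher and 7.50% called in either direction. The nuclear members thus stood near the background of the whole table. Their median log2 fold change (knockout over wild type) was 0.03, with a range from -0.86 to 0.31, and 33 of 79 lay below 0, while 49.3% of all tested genes did. Of the 9 tested mitochondrially encoded messages, edgeR called 0, as did DESeq2 and limma-voom, while other settings called up to 5, described with those genes. At an unadjusted edgeR p under 0.05, 3 of the 9 were lower, against 10.7% of all tested genes. The balance of calls depended on the scaling: 514 genes of the whole table were lower and 347 higher after TMM scaling. Without TMM factors 336 were lower and 1008 higher, the median of all tested genes became 0.11 and that of the nuclear members 0.14.

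**Figure D1:**
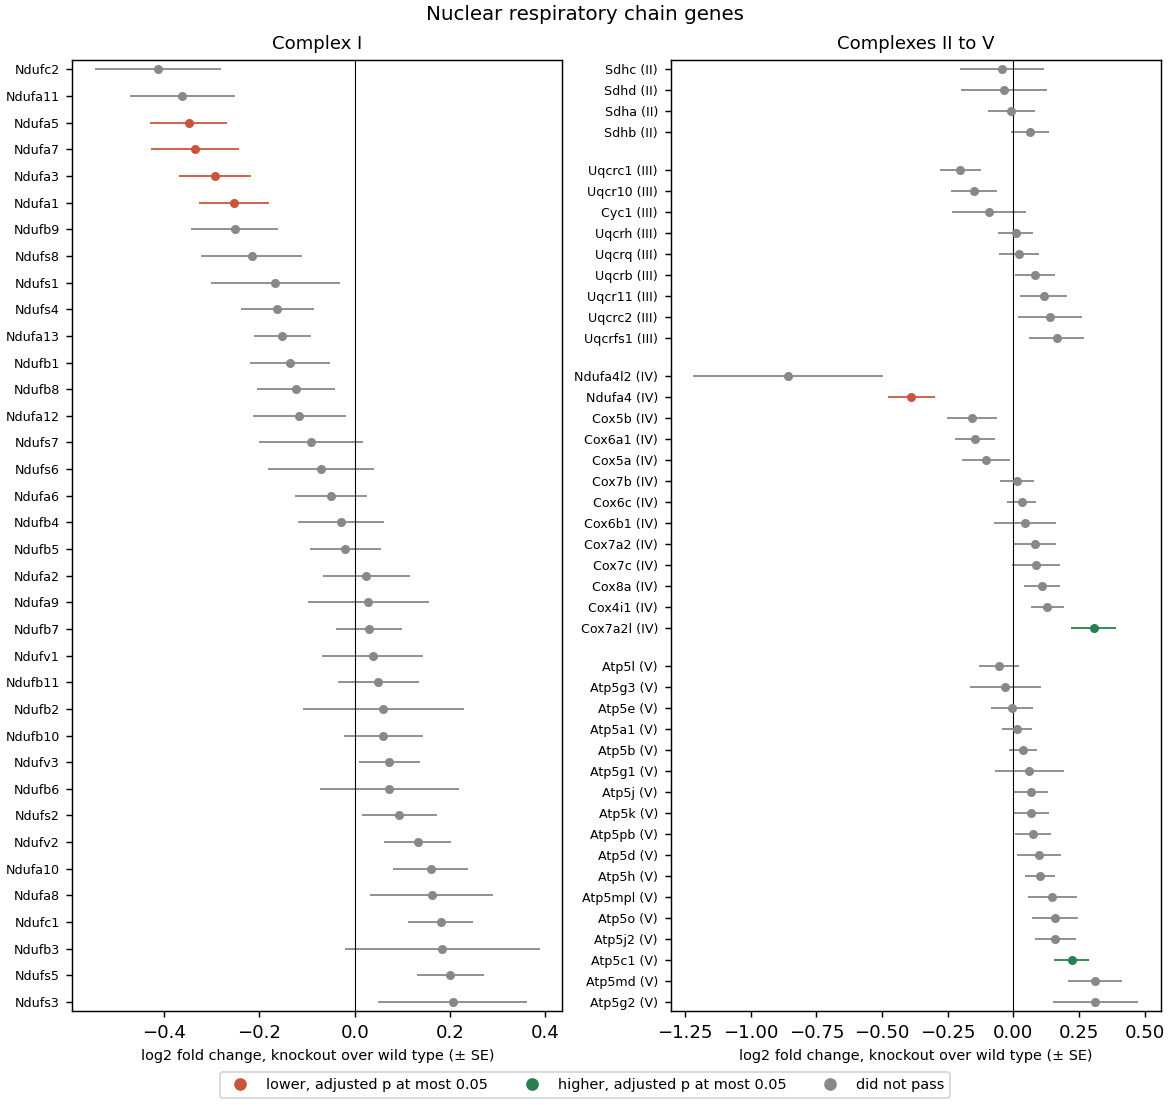
Log2 fold change (knockout over wild type, x axis) with its standard error for each of the 79 tested nuclear members, ordered within each complex, with 36 complex I genes on the left and complexes II to V on the right (the x scales differ). The 5 lower calls are 4 complex I genes and Ndufa4, the 2 higher calls are Cox7a2l and Atp5c1, and the intervals of most other genes reach across or lie near 0.

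Complex I takes electrons from NADH and is the largest complex, with a core that is shared with bacteria and many accessory subunits around it. In wild-type lenses Ndufa1, a small membrane subunit, gave the highest nuclear complex I level per length, at 350 ± 11.1 CPM per kb of exon, and Ndufa13 followed at 147 ± 6.10 CPM per kb (SD, n = 3). Among the 36 tested nuclear genes of complex I, 4 (11.1%) were called lower and 0 higher, against 4.48% and 3.02% of all tested genes. Their median was -0.02 on the log2 scale. All 4 called genes were among the 29 tested accessory genes, and 0 of the 7 core genes passed in either direction. At such rates 7 core genes are too few to set the core apart from the accessory genes. The knockout libraries lay below every wild-type library for 9 of the 36 genes and above for 3, against 12.4% and 12.1% of all tested genes. The complex I genes summed to 1937 ± 23.1 CPM in wild type against 1860 ± 70.8 CPM without Cd24a, and the groups overlapped, since knockout library 3 reached 1941 CPM.

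Ndufa5, an accessory subunit of the arm that reaches into the matrix, measured 55.5, 63.0 and 56.4 CPM in the wild-type libraries and 44.1, 46.8 and 46.3 CPM in the knockout libraries. The groups did not overlap, and the knockout libraries lay close to each other. It fell by 0.35 on the log2 scale (SE 0.08, edgeR quasi-likelihood adjusted p = 0.00828). The Ndufa5 call was lost under library size scaling alone, with an edgeR adjusted p of 0.0727, and held under the 17 other settings.

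Ndufa7, another accessory subunit of the matrix arm, measured 41.6, 47.5 and 41.6 CPM in wild type and 33.1, 33.5 and 37.0 CPM in the knockout. Every knockout library lay below the wild-type range. The message fell by 0.34 on the log2 scale (SE 0.09, edgeR quasi-likelihood adjusted p = 0.0265). Without knockout library 1 or 2 or wild-type library 2, the edgeR adjusted p of Ndufa7 was 0.0985, 0.0721 and 0.115, and it was 0.124 with library size alone and 0.12 with DESeq2.

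Ndufa3, an accessory subunit of the membrane arm, measured 71.9, 68.8 and 64.0 CPM in wild type and 54.0, 54.2 and 59.2 CPM in the knockout. The groups were separate, with knockout library 3 nearest to wild type. The message fell by 0.29 on the log2 scale (SE 0.08, edgeR quasi-likelihood adjusted p = 0.0194). Without knockout library 1 or 2 or wild-type library 1 or 2, the edgeR adjusted p of Ndufa3 was 0.0845, 0.0513, 0.0962 and 0.0516, and it was 0.14 with library size alone and 0.0776 with DESeq2.

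Ndufa1, which is encoded on the X chromosome and is needed for complex I assembly in hamster and human cells, measured 144, 144 and 152 CPM in wild type and 112, 117 and 141 CPM in the knockout. Knockout library 3, where Xist was high, reached almost to the lower wild-type libraries. The message fell by 0.25 on the log2 scale (SE 0.07, edgeR quasi-likelihood adjusted p = 0.0404), the call nearest but one to the threshold among the 7. Without knockout library 1 or 2 or wild-type library 1, 2 or 3, the edgeR adjusted p of Ndufa1 was 0.277, 0.175, 0.122, 0.105 and 0.141. It was 0.225 with library size alone, 0.064 with DESeq2 and 0.101 with a photoreceptor score as a covariate.

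Just past the threshold were further accessory subunits of the membrane arm. Ndufa11 measured 38.4 ± 5.36 CPM in wild-type and 30.0 ± 3.11 CPM in knockout lenses (SD, n = 3), a log2 difference of -0.36 with an edgeR quasi-likelihood adjusted p of 0.0506, and knockout library 3 overlapped the lowest wild-type library. Ndufc2 measured 23.6, 26.0 and 25.1 CPM in wild type and 15.5, 17.2 and 23.5 CPM in the knockout, with a log2 difference of -0.41 and an edgeR adjusted p of 0.0635. Its groups did not overlap, although knockout library 3 came close to the lowest wild-type library. Ndufb9, at the far end of the membrane arm, measured 46.3 ± 1.81 CPM against 39.0 ± 4.24 CPM, with an edgeR adjusted p of 0.105. In the other direction, Ndufs5, an accessory subunit on the intermembrane side, measured 58.3 ± 0.721 CPM against 66.9 ± 2.00 CPM, a log2 difference of 0.20 with an edgeR adjusted p of 0.0978 and no overlap of the groups. The core subunits were among those that did not pass. Ndufs8, which holds iron-sulfur clusters, measured 26.9 ± 1.33 CPM against 23.1 ± 2.00 CPM, with an edgeR adjusted p of 0.261, and Ndufs3 measured 10.7 ± 1.17 CPM against 12.3 ± 0.759 CPM, with an edgeR adjusted p of 0.527.

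Complex II, succinate dehydrogenase, is also an enzyme of the citric acid cycle and is wholly nuclear. edgeR called 0 of its 4 genes in either direction, 0 of 4 at an unadjusted p under 0.05, and the median log2 fold change was -0.02. Sdhb, the iron-sulfur subunit, measured 67.1 ± 2.73 CPM in wild-type and 70.1 ± 4.07 CPM in knockout lenses, and Sdha, the flavoprotein, measured 64.4 ± 5.05 CPM and 64.0 ± 7.94 CPM. Per length these were 30.0 and 15.6 CPM per kb in wild type, below the leading genes of every other complex.

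Complex III passes electrons from ubiquinol to cytochrome c. edgeR called 0 of its 9 nuclear genes, and 1 was lower at an unadjusted p under 0.05, as were 10.7% of all tested genes (9.47% were higher). That gene was Uqcrc1, a core-protein subunit on the matrix side, with 57.1, 65.2 and 66.3 CPM in wild type and 53.6, 55.0 and 55.2 CPM in the knockout. Its groups did not overlap, but the edgeR quasi-likelihood adjusted p was 0.136. The catalytic subunits Cyc1 (cytochrome c1) and Uqcrfs1 (the Rieske protein) gave log2 differences of -0.09 and 0.17, with edgeR adjusted p-values of 0.79 and 0.414. Uqcrh, the hinge protein, had the highest nuclear level of the complex, at 99.0 CPM per kb in wild type, followed by Uqcr11 at 74.4 CPM per kb.

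Complex IV, cytochrome c oxidase, reduces oxygen, and its nuclear subunits include forms used by different tissues. Of 13 tested nuclear genes 1 was lower and 1 was higher, against 4.48% and 3.02% of all tested genes. Ndufa4, first described with complex I and now placed in complex IV, measured 41.9, 46.9 and 44.0 CPM in wild type and 36.5, 33.1 and 31.8 CPM in the knockout. All knockout libraries lay below all wild-type libraries. It fell by 0.39 on the log2 scale (SE 0.09, edgeR quasi-likelihood adjusted p = 0.0086). The call was kept under 17 of 18 other settings, with an adjusted p of 0.0663 under library size scaling alone. Its relative Ndufa4l2, known in human cells as a gene induced by low oxygen, was scarce, with 3.13, 5.68 and 3.88 CPM in wild type and 3.60, 1.25 and 2.21 CPM in the knockout. These groups overlapped, and the log2 difference of -0.86 had an edgeR adjusted p of 0.178.

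Cox7a2l, also called SCAF1, is known as a factor that can join complexes III and IV into supercomplexes, which were not measured here. It measured 44.0, 50.8 and 43.8 CPM in wild type and 52.7, 58.6 and 60.1 CPM in the knockout, so that knockout library 1 lay just above wild-type library 2. It rose by 0.31 on the log2 scale (SE 0.09, edgeR quasi-likelihood adjusted p = 0.0305). Without knockout library 2 or 3 or wild-type library 1 or 3, the edgeR adjusted p of Cox7a2l was 0.0661, 0.0954, 0.124 and 0.126, and it was 0.107 with DESeq2 and 0.156 with the photoreceptor score. In GENCODE M21, 13.8% of the 50-base windows of Cox7a2l transcripts also occurred in a processed pseudogene on another chromosome.

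The complex IV isoforms found in most tissues carried nearly all of the signal in the lens. Cox4i1 reached 268 CPM in wild type, while Cox4i2, the lung form, was at 0.99 CPM. Cox6a1 reached 92.0 CPM and the heart and muscle form Cox6a2 0.095 CPM. Cox6b1 stood at 39.7 CPM against 1.52 CPM of Cox6b2, a testis form, and Cox8a at 126 CPM against 0.685 CPM of the heart and muscle form Cox8b, and the testis form Cox8c had 0 counts in every library. Per length, Cox8a (204 CPM per kb) and Cox4i1 (173 CPM per kb) led the nuclear genes of the complex in wild type. Cox7a1, the heart and muscle partner of Cox7a2 (70.9 CPM in wild type), had 4, 2 and 4 counts in wild type and 1, 0 and 0 in the knockout, too few to enter the fit, a wild-type to knockout ratio of 8.89 (95% exact Poisson interval 1.27 to 386, counting error only). Skeletal muscle markers summed to 6.27 to 7.60 CPM in wild-type and 6.99 to 8.46 CPM in knockout lenses, with 8 of 10 detected and Mb and Tnnt3 at 0.

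Complex V makes ATP with a rotating head driven by protons through its membrane ring. Of its 17 tested nuclear genes 14 had log2 differences above 0, and 17.6% lay below 0, against 49.3% of all tested genes. The test called 1 of the 17 higher and 0 lower, against 3.02% and 4.48% of all tested genes, and the median was 0.08. Atp5c1, the gamma subunit that turns inside the catalytic head, measured 114, 122 and 127 CPM in wild type and 142, 133 and 150 CPM in the knockout. The groups were separate, with a narrow gap between wild-type library 3 and knockout library 2. It rose by 0.22 on the log2 scale (SE 0.07, edgeR quasi-likelihood adjusted p = 0.0419). Without knockout library 1 or 3 or wild-type library 1 or 2, the edgeR adjusted p of Atp5c1 was 0.178, 0.156, 0.259 and 0.128. It was 0.057 without the low-count filter, 0.0854 with DESeq2 and 0.0919 with the photoreceptor score, and the call was lost under 8 of 18 other settings.

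The other parts of ATP synthase differed less. Atp5b, the catalytic beta subunit and the most abundant nuclear member by CPM, measured 462 ± 12.8 CPM in wild-type and 474 ± 14.6 CPM in knockout lenses (SD, n = 3), with an edgeR adjusted p of 0.774. Atp5md, a small subunit that helps ATP synthase form dimers, measured 30.3, 28.3 and 27.0 CPM in wild type and 31.1, 35.6 and 39.7 CPM in the knockout. Its groups did not overlap, but the log2 difference of 0.31 had an edgeR adjusted p of 0.0748. Atp5h, a peripheral stalk subunit, led the complex per length at 151 CPM per kb in wild type, followed by Atp5k, a membrane subunit, at 132 CPM per kb. The 3 genes that encode the same membrane ring subunit, Atp5g1, Atp5g2 and Atp5g3, had 15.0, 12.2 and 17.7 CPM in wild type, so none of them dominated. The summed level of the complex V genes was 1694 to 1725 CPM in the wild-type libraries and 1770 to 1858 CPM in the knockout libraries, without overlap, while for 5 of the 17 genes alone the knockout lay above, a pattern seen in 12.1% of all tested genes.

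**Figure D2:**
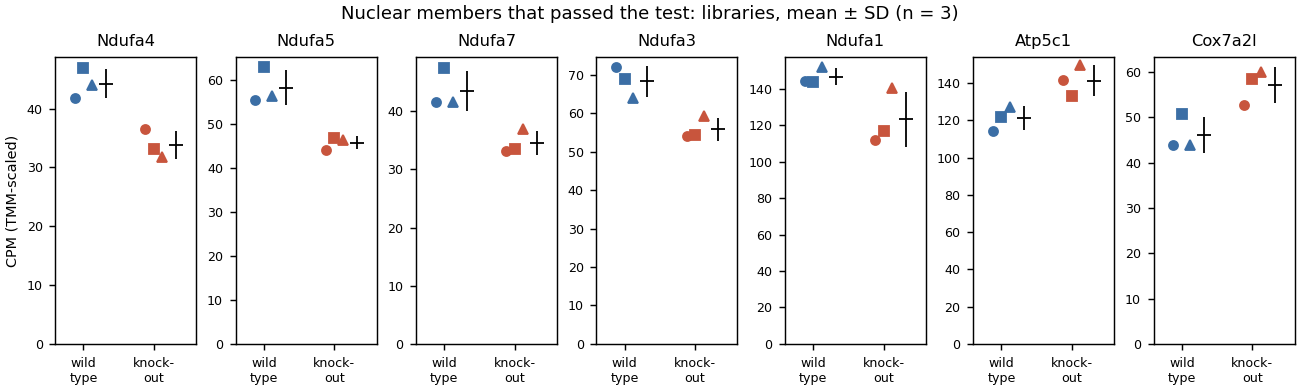
TMM-scaled CPM (y axis, from 0) of the 7 nuclear members that passed the test, with blue wild-type and red knockout libraries (circle, square and triangle for replicates 1, 2 and 3) and the mean ± SD beside them. For each gene the groups do not overlap, with knockout library 3 of Ndufa1 at 141 CPM just below the wild-type libraries at 144.

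The 5 genes called lower had a median exon length of 1032 bp and a median GC content of 48.4%, and the 72 tested nuclear genes that were not called had 1737 bp and 50.4%. The lengths of the called genes were mixed, since Ndufa7 (1828 bp) and Atp5c1 (1908 bp) were longer than that median, and the difference was not tested. With offsets for GC content and length in the fit, all 7 called members, 5 lower and 2 higher, kept their calls. Among libraries, knockout library 3 gave the highest value of all 6 libraries for 32 of 79 nuclear members. The same count was not made over all tested genes, so it cannot be read as a trait of these members.

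Nuclear subunit genes are known to share promoter elements for the activator NRF1 and for ETS family factors, and the promoters of 3 called genes are shown because they hold or lack such an element. Promoter windows of 300 bases, from 250 before to 50 after the start, were taken from RefSeq on GRCm38.p6, where 65 of the 79 tested nuclear members had a window and 70 windows were found. The NRF1 motif (GCGCA, any base, then GCGC), searched on both strands, was in 25.7% of these windows and in 4.6% of all 32851 promoters. The ETS motif CCGGAAG, searched on both strands, was in 24.3% and 8.86%, and the motifs shared no base in any window. Of the 7 windows of genes called lower, 2 held the NRF1 motif. These are overlapping windows of Ndufa5 with the same match, so that 1 of the 5 genes had it. Of the 3 windows of genes called higher, 1 of Atp5c1 held it. The ETS motif was in 0 of the 7 and 0 of the 3 windows, which are few. The capitals mark the motif in the Ndufa5 and Atp5c1 windows (both on the minus strand), and Ndufa4, also on the minus strand, had no match to either motif.
Ndufa5, chr6:24527477-24527776: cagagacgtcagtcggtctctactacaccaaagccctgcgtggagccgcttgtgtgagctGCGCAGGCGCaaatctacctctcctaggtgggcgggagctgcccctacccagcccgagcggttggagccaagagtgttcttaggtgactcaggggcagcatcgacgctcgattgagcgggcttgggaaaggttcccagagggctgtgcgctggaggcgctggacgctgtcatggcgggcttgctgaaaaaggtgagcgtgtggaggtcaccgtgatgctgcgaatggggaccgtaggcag
Atp5c1, chr2:10080383-10080682: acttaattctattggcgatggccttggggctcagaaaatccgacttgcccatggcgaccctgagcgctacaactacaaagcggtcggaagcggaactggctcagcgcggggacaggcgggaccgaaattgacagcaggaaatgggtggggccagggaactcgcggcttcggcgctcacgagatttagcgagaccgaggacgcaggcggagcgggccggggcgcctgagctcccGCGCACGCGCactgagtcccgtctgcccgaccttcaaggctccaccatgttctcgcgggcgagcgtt
Ndufa4, chr6:11907401-11907700: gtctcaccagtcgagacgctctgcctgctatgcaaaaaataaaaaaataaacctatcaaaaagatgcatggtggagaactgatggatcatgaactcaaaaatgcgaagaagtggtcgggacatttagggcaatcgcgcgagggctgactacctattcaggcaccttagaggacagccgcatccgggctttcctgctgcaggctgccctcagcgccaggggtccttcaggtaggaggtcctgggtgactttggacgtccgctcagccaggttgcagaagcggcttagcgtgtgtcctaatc
The factor genes themselves did not pass the test. Nrf1 measured 11.2 ± 1.26 CPM in wild-type and 13.2 ± 2.43 CPM in knockout lenses, with an edgeR adjusted p of 0.482, and Gabpa, an ETS family activator, measured 50.2 ± 2.59 CPM and 56.3 ± 2.62 CPM, with an edgeR adjusted p of 0.239.

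The mitochondrially encoded messages are made as long transcripts of the mtDNA that are cut into single messages, and in the lens they spread over a wide range of levels. Per length in wild type, mt-Cytb (cytochrome b of complex III) stood at 477 ± 123 CPM per kb, followed by mt-Co1 at 296 ± 83.1, mt-Nd1 at 279 ± 83.0, mt-Nd5 at 260 ± 60.6, mt-Nd2 at 249 ± 57.5 and mt-Nd4 at 153 ± 38.9 CPM per kb (SD, n = 3). The neighbours among mt-Co1, mt-Nd1, mt-Nd5 and mt-Nd2 in this order were closer to each other than their spread. Of the nuclear members, Ndufa1 (350 CPM per kb) stood between mt-Cytb and mt-Co1, and Cox8a and Cox4i1 between mt-Nd2 and mt-Nd4. mt-Nd6, from the other strand of the mtDNA, was lower at 17.7 CPM per kb. The remaining 6 genes, mt-Co2, mt-Atp6, mt-Nd3, mt-Co3, mt-Atp8 and mt-Nd4l, lay between 1.19 and 5.25 CPM per kb.

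Sequence copies of the mtDNA in the nuclear genome run along with these low values. Most of the 50-base windows of mt-Co2 (100%), mt-Co3 (99.9%), mt-Atp6 (99.5%), mt-Nd4l (98.8%) and mt-Nd3 (98%) also occurred in annotated pseudogenes of GENCODE M21, chiefly on chromosome 1. The share was 62.2% for mt-Nd4, 51.1% for mt-Co1, 8.19% for mt-Nd2 and 7.61% for mt-Nd5. It was 0% for mt-Nd1, mt-Nd6 and mt-Cytb, and also for mt-Atp8, which overlaps mt-Atp6 on the mtDNA and was as low as the copied genes. Only annotated transcripts were searched, so 0% does not exclude a copy outside them. In the order of the mtDNA, mt-Atp8 lies between mt-Co2 and mt-Atp6, which both have annotated copies. The counting of reads that match more than 1 place is not stated in the labels or headers, so the levels of these genes, and the places of mt-Co1 and mt-Nd4 in the order above, are uncertain, and the part of the copies in them was not tested. Among the copies on chromosome 1, Gm28661, the copy of mt-Co2, had 0 to 2 counts in every library and Gm10925, that of mt-Atp6, had 3 to 13.

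**Figure D3:**
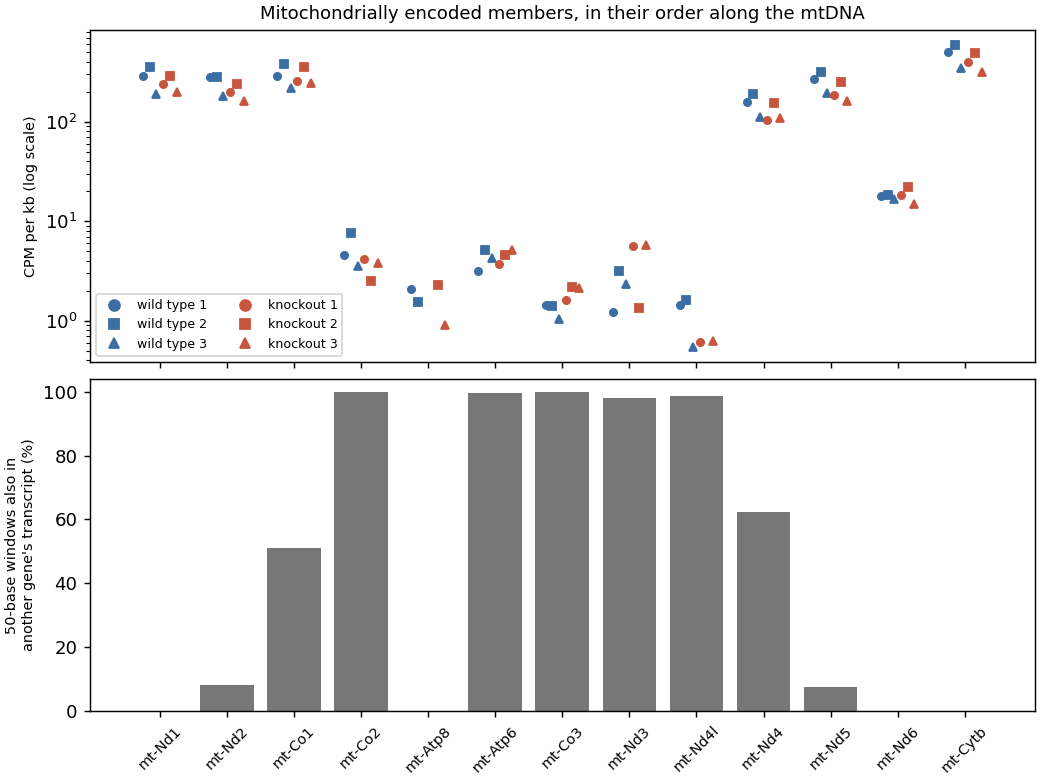
Upper panel, CPM per kb (y axis, log scale) of the 13 mitochondrially encoded members in their order along the mtDNA in each library (libraries at 0 counts are not drawn), and lower panel, the percentage of 50-base windows of each gene that also occur in an annotated transcript of another gene. The stretch from mt-Co2 to mt-Nd4l is low in every library, and all of its genes but mt-Atp8 have shares of 98% or more.

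A sequence from the start of mt-Nd3 and from its chromosome 1 copy shows how close such pairs are. Over 345 aligned bases of the GENCODE M21 transcripts they differed at 1 base, T3C (the base of mt-Nd3 first, counted from 1 at its 5′ end), shown in capitals within the first 60 bases.
mt-Nd3: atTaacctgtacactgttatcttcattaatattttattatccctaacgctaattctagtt
Gm28438: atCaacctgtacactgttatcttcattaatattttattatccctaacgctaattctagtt
mt-Nd3, a complex I subunit, had 3, 7 and 5 counts in wild type and 11, 3 and 11 in the knockout, overlapping groups that were too low for the fit. The copy Gm28438, an unprocessed pseudogene that is no member and was named after its values were seen, had 50, 49 and 46 counts in wild type and 1, 0 and 0 in the knockout. The wild-type to knockout ratio of Gm28438 was 129 (95% exact Poisson interval 22.8 to 5129, counting error only), its edgeR quasi-likelihood adjusted p was 7.28e-08, and the call was kept under all 18 other settings. The pair differed at 1 aligned base, and the strain label differs between the groups. Whether the reads counted for Gm28438 came from the copy or from mt-Nd3 is therefore uncertain and was not tested. The copies of mt-Nd4l, mt-Co2, mt-Co3 and mt-Atp6 on chromosome 1 had 0 differences from their mitochondrial genes over the aligned bases.

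Between the genotypes, the abundant mitochondrially encoded messages differed less than the libraries of a group differed from each other. mt-Nd5, a proton-pumping subunit of complex I, measured 486, 578 and 358 CPM in wild type and 339, 460 and 297 CPM in the knockout. The groups overlapped, and within each group library 2 was highest and library 3 lowest. The log2 difference was -0.37 (SE 0.13, edgeR quasi-likelihood adjusted p = 0.101). mt-Nd5 was called lower under 7 of 18 other settings, with edgeR adjusted p-values as low as 1.5e-07 without the low-count filter. mt-Co1, the oxygen-reducing subunit of complex IV, measured 443, 591 and 336 CPM in wild type and 393, 554 and 378 CPM in the knockout, so that the ranges were nearly the same. Its log2 difference was -0.05 (SE 0.14, edgeR adjusted p = 0.902), and turned to 0.08 under library size scaling alone. mt-Cytb measured 572, 671 and 394 CPM against 458, 558 and 364 CPM, with a log2 difference of -0.25 and an edgeR adjusted p of 0.345.

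Further complex I messages lay below 0 without passing the test. The log2 differences were -0.20 for mt-Nd1, -0.30 for mt-Nd2 and -0.31 for mt-Nd4, with edgeR adjusted p-values of 0.498, 0.184 and 0.216. mt-Nd6 gave 0.06 and mt-Atp6, a membrane subunit of ATP synthase, 0.11, with edgeR adjusted p-values of 0.894 and 0.897, and mt-Co2 gave -0.59 at 2 to 5 CPM a library, with an edgeR adjusted p of 0.382. Over the 9 tested messages the median log2 difference was -0.25 and 7 lay below 0, and all were measured in the same 6 libraries. The count of calls depended on the setting and on single libraries. Without the low-count filter 4 were called lower (mt-Nd2, mt-Nd4, mt-Nd5 and mt-Cytb), and the same 4 were with the replicate number as a block. Without wild-type library 3, in which 6 of the 6 abundant messages were at their group's lowest, 5 messages were called lower by edgeR (mt-Nd1, mt-Nd2, mt-Nd4, mt-Nd5 and mt-Cytb), and without knockout library 2, 2 were (mt-Nd4 and mt-Nd5).

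The libraries of a group moved together in their mitochondrially encoded messages. Among the 6 abundant messages, wild-type library 2 and knockout library 2 were the highest of their groups for 6 of 6, wild-type library 3 was the lowest for 6 of 6 and knockout library 3 for 5 of 6. The highest library exceeded the lowest by 1.56 to 1.86 times in wild type and by 1.46 to 1.55 times in the knockout. The median coefficient of variation was 25.65% in wild type and 21.55% in the knockout for these messages, against 5.9% and 7.2% for the 79 nuclear members. The replicate 3 libraries were those with high Xist. The 12 photoreceptor markers summed to 604, 325 and 656 CPM in wild-type libraries 1 to 3 and to 482, 330 and 337 CPM in knockout libraries 1 to 3, lowest in replicate 2 of each group. The part of sex and of photoreceptor RNA in these levels was read only from fits with a term for each, which called mt-Nd2 and mt-Nd5 lower with the Xist term and mt-Nd4 and mt-Nd5 lower with the photoreceptor term.

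Summed over all members, the nuclear messages took 5459 ± 61.2 CPM in wild-type and 5517 ± 206 CPM in knockout lenses (SD, n = 3). The mitochondrially encoded messages took 2301, 2760 and 1630 CPM in wild type and 1789, 2333 and 1565 CPM in the knockout. The nuclear sums varied little and the mitochondrial ones much, with overlapping groups in both. As unscaled shares of all counts, the nuclear members took 0.524 ± 0.0132% in wild type and 0.570 ± 0.0077% in the knockout, without overlap, and the mitochondrially encoded members took 0.213 ± 0.0483% and 0.197 ± 0.0477%. The ratio of mitochondrially encoded to nuclear counts was 0.426, 0.500 and 0.299 in wild type and 0.329, 0.435 and 0.272 in the knockout. The ratio followed the library order of the mitochondrial messages, and its groups overlapped. The mitochondrial ribosomal RNAs mt-Rnr1 and mt-Rnr2, which the depletion of ribosomal RNA may reach, took 1.62 ± 0.257% and 1.64 ± 0.324% of counts.

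**Figure D4:**
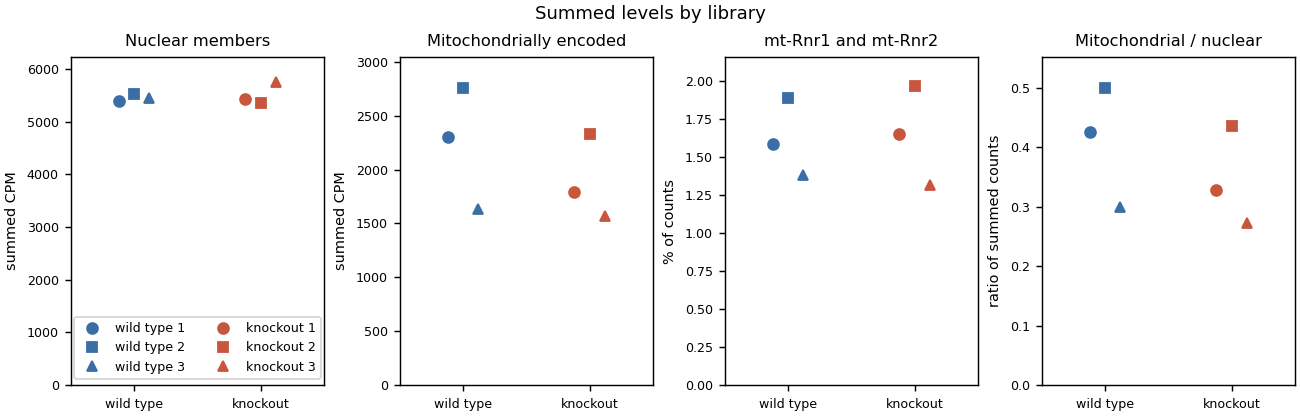
Summed values in each library (y axes from 0), from left to right the TMM-scaled CPM of the nuclear members, that of the mitochondrially encoded members, the percentage of counts on mt-Rnr1 and mt-Rnr2, and the ratio of mitochondrially encoded to nuclear counts. The nuclear sums stay between 5362 and 5751 CPM, while the mitochondrial sums run from 1565 to 2760 CPM, with replicate 2 highest and replicate 3 lowest in each group.

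Within the abundant mitochondrially encoded messages the shares of 2 of 6 genes did not overlap between the groups, a pattern that levels showed for 12.4% (knockout below) and 12.1% (knockout above) of all tested genes. mt-Co1 took 19.4%, 21.59% and 20.79% of the counts of the 6 genes in the wild-type libraries and 22.21%, 23.92% and 24.43% in the knockout libraries. mt-Nd5 took 21.26%, 21.12% and 22.19% in wild type and 19.13%, 19.87% and 19.21% in the knockout. For both genes the groups were separate, mt-Co1 with the knockout above and mt-Nd5 with the knockout below, and for mt-Nd1, mt-Nd2, mt-Nd4 and mt-Cytb they overlapped. These shares sum to the whole, so they are not independent of each other, and they were not tested. Of mt-Co1, 51.1% of windows also occur in pseudogenes, of which Gm13340 on chromosome 2 had 9 to 16 counts in wild type and 12 to 24 in the knockout. The counting of reads that match more than 1 place is not stated. These counts therefore cannot give the part of the copies in the mt-Co1 share, which was not tested.

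**Figure D5:**
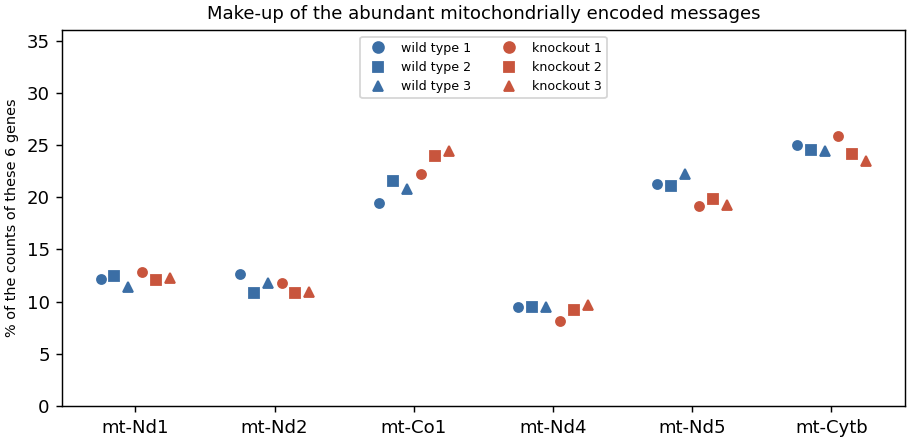
Percentage of the summed counts of the 6 abundant mitochondrially encoded messages (y axis, from 0) taken by each gene in each library, blue for wild type and red for knockout. The knockout libraries lie above the wild-type libraries for mt-Co1 (22.21% to 24.43% against 19.4% to 21.59%) and below them for mt-Nd5 (19.13% to 19.87% against 21.12% to 22.19%).

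Genes that build the chain, or serve it, were counted in lists, to be read against the 4.48% of all tested genes called lower and 3.02% called higher. edgeR called 0 of 15 tested complex I assembly genes (0 with an unadjusted p under 0.05), 0 of 31 assembly genes of the other complexes (5 lower and 1 higher unadjusted, against 10.7% and 9.47% of all tested genes), and 0 of 14 genes for cytochrome c and coenzyme Q (0 unadjusted). Of 28 genes for mtDNA replication, transcription and RNA processing, 1 was higher. That gene was Mtres1, a mitochondrial transcription rescue factor that lies beside Cd24a on chromosome 10, with 9.94 ± 2.26 CPM in wild-type and 85.0 ± 1.51 CPM in knockout lenses, a rise of 3.10 on the log2 scale (SE 0.11, edgeR quasi-likelihood adjusted p = 6.2e-14). Tfam, which packages mtDNA and starts its transcription, measured 17.1 ± 1.20 and 17.0 ± 1.76 CPM. Its edgeR adjusted p was 0.96.

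Of 11 nuclear regulators of mitochondrial genes, 1 was higher. This was Yy1, a zinc finger factor, with 47.3 ± 1.22 CPM in wild-type and 57.6 ± 2.99 CPM in knockout lenses (log2 fold change 0.29, edgeR adjusted p = 0.0258), and without wild-type library 1, 2 or 3 or knockout library 2 or 3 the adjusted p was 0.0824, 0.064, 0.0504, 0.0502 and 0.0859, among 7 of 18 other settings in which the call was lost. Ppargc1a, a coactivator of mitochondrial genes, measured 6.83 ± 1.72 and 4.69 ± 1.87 CPM, with overlapping groups and an edgeR adjusted p of 0.32. Among 77 tested mitochondrial ribosomal protein genes 2 were lower and 1 higher. Mrpl35 fell from 8.39 ± 1.02 to 4.30 ± 0.249 CPM (log2 fold change -0.96, edgeR adjusted p = 0.00614), a call kept under all 18 other settings. Mrpl57 (-0.54, edgeR adjusted p = 0.0432) and Mrpl58 (0.40, edgeR adjusted p = 0.0498) were near the threshold. Without knockout library 1 or 3 or wild-type library 1 or 2, the edgeR adjusted p of Mrpl57 was 0.0757, 0.175, 0.131 and 0.135, and without knockout library 1 or 3 or wild-type library 1 or 3 that of Mrpl58 was 0.159, 0.2, 0.132 and 0.195. In all, the call was lost under 7 of 18 other settings for Mrpl57 and under 11 for Mrpl58.

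Of 17 citric acid cycle genes, which supply NADH and succinate to the chain, 2 were lower. Of these, Suclg2, the GTP-forming subunit of succinyl-CoA ligase, fell from 20.4 ± 1.40 to 14.5 ± 2.53 CPM (log2 fold change -0.50, edgeR adjusted p = 0.0255), and without knockout library 1 or 2 or wild-type library 1 or 3 the adjusted p was 0.149, 0.0621, 0.127 and 0.0518, among 7 of 18 other settings in which the call was lost. Of 11 carriers and porins, 2 were higher, against 3.02% of all tested genes. Slc25a4, the ADP/ATP carrier of the inner membrane, rose from 303 ± 13.4 to 372 ± 20.5 CPM (log2 fold change 0.30, edgeR adjusted p = 0.00206), a call kept under all 18 other settings. Slc25a3, the phosphate carrier, rose from 86.3 ± 3.07 to 101 ± 5.22 CPM (log2 fold change 0.23, edgeR adjusted p = 0.0381), and without knockout library 1 or 3 or wild-type library 1, 2 or 3 the adjusted p was 0.156, 0.137, 0.213, 0.0892 and 0.0768, among 9 of 18 other settings in which the call was lost.

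Some markers of the epithelium and of other cells differed with genotype in the same libraries. Lens epithelium markers called lower were Aqp1, Gja1, Igfbp7, Npnt and Pdgfra, while the epithelial factors Pax6 (175 ± 4.01 and 178 ± 5.46 CPM) and Foxe3 (21.2 ± 2.51 and 21.8 ± 0.707 CPM) had overlapping groups. Markers of pigment epithelium and pigment cells summed to 40.45 to 65.82 CPM in wild-type and 16.92 to 31.82 CPM in knockout lenses. Of these, 10 of 10 were detected and 6 were tested. The test called 3 of the 6 lower, against 4.48% of all tested genes, and their median log2 fold change was -0.98. Of the cornea and surface epithelium markers, summing to 85.45 to 96.06 CPM against 58.59 to 76.51 CPM, nearly all of the level was Aldh3a1 (89.5 ± 5.71 and 65.4 ± 9.48 CPM), the only one of 7 abundant enough to test, while 5 of 7 were detected and the defining markers Krt12 and Kera were at 0. Their part in the calls of Ndufa1, Ndufa3, Ndufa4, Ndufa5, Ndufa7, Cox7a2l and Atp5c1 was not tested.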

How the data were processed

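Whole lenses were profiled by RNA sequencing in 6 samples. Per the labels, a low-input stranded kit (SMARTer Stranded Pico) with depletion of ribosomal RNA was used on total RNA, and every library was read single-end on 4 lanes. Per the submitters' processing notes, HISAT2, HTSeq, edgeR and the build GRCm39 were used, without versions or settings, and whether counting used strand is not stated in the sources. The authors deposited raw counts per gene on Ensembl features, with exon length and a GC fraction for each.

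From these counts, genes were filtered with filterByExpr on genotype (minimum count 10), scaled by TMM and tested two-sided by quasi-likelihood (edgeR version 4.0.16 in R 4.3.3, with limma 3.58.1) over all 11474 genes kept, with Benjamini-Hochberg adjustment and a threshold of 0.05. SEs are the log2 fold change over the square root of its F statistic. The SE of the tested nuclear members had a median of 0.0848 and ran from 0.0534 to 0.362. Replicates of a group differed beyond sampling noise. CPM are TMM-scaled, and CPM per kb divides by exon length. The fit was tested on simulated counts. The same replicate numbers in both groups are not stated to mark a shared batch, so the main fit treated them as names only.

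The members and lists were chosen with earlier results of these data known. The rule for named genes took every mitochondrially encoded member, called nuclear members, the 2 of each complex highest per kb, the isoform pairs, Mtres1, Tfam and up to 4 called genes of each list. Other genes, such as those near the threshold, further core subunits, Nrf1, Gabpa, Ppargc1a and most markers, were named after their values were seen. Alternatives were other scalings, no low-count filter and another filter, DESeq2 1.42.0, limma-voom, the replicate number as a block, terms for Xist and photoreceptor RNA, GC and length offsets, and leaving out each library. Promoters are RefSeq's on GRCm38.p6 and transcripts are GENCODE M21's, matched by symbol or identifier, since no genome of GRCm39 was used here. Some named genes are not reported here.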

Additional observations from a re-analysis of the deposited data

How the results depend on the processing

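The settings that moved the counts of calls most were library size scaling and the choice of libraries. With library size scaling alone, 1344 genes of the whole table were called (336 lower, 1008 higher), 0 nuclear members were lower and 11 higher, and the nuclear median became 0.14. With DESeq2, 219 genes were higher, 2 nuclear members were lower and 0 higher. Nuclear members called higher numbered 1 without the low-count filter, 1 with the replicate block and 0 with the photoreceptor score. Mitochondrially encoded members called numbered 4 without the low-count filter, 4 with the replicate block, 2 with the Xist term, 2 with the photoreceptor score and 1 with GC and length offsets. The deviations of same-numbered libraries from their group mean had correlations of 0.0545, -0.0348 and 0.0349 over all tested genes. These values cannot decide whether same-numbered libraries shared a batch, which the labels do not state. Xist was high in replicate 3 of both groups, and the abundant mitochondrially encoded messages were highest in replicate 2 of both. Leaving out each library in turn gave 562 to 782 calls in the whole table, 368 to 485 lower and 194 to 297 higher, 2 to 8 nuclear members lower, 0 to 2 higher and 0 to 5 mitochondrially encoded. The cause of these moves was not tested. Leaving out a library leaves fewer samples. 

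Differences that changed sign were far from the threshold in the main test. With library size alone mt-Co1 gave 0.0761 and Tfam 0.0906, and with the photoreceptor score mt-Atp6 gave -0.0414. Leaving out libraries, mt-Nd1 ran from -0.412 to 0.0101, mt-Nd6 from -0.0895 to 0.191, mt-Co1 from -0.241 to 0.183, mt-Atp6 from -0.0671 to 0.281 and Tfam from -0.103 to 0.0492. The 7 called nuclear members kept their sign under all 18 settings. Low counts limit mt-Nd3, mt-Nd4l, mt-Co3, mt-Atp8 and the 13 nuclear genes that were not tested.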
